A study of Mus musculus with 24 samples.

Results

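The genes described here encode the proteins of the cytosolic ribosome in mouse liver. They were the 81 loci, of 23746 in each deposited file, whose symbol is Rpl or Rps followed by a number (with an optional letter a, l or x), together with Rplp0, Rplp1, Rplp2 and Rpsa. The rule used symbols alone, but earlier results of these data were known when it was chosen. The large subunit is represented by 49 of these genes and the small subunit by 32, and they lie on 19 chromosomes. Of the 81, 77 encode standard ribosomal proteins and 4 (Rpl3l, Rpl10l, Rpl39l and Rps27l) are paralogs of one of them.

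Ribosomal proteins assemble with ribosomal RNA in the nucleolus into a small subunit, which reads the mRNA, and a large subunit, which forms the peptide bond. Each protein is present in about 1 copy per ribosome, except the P stalk proteins Rplp1 and Rplp2, so the genes are expressed together and at high level. Their mRNAs typically begin with a C followed by a run of pyrimidines, the terminal oligopyrimidine (TOP) tract, through which mTORC1 signalling regulates their translation. The liver is a tissue in which ribosome content and protein synthesis follow food intake, and insulin, which rises with feeding, also acts through AKT to keep the transcription factor FoxO1 out of the nucleus.

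Liver RNA came from C57BL/6 mice of 2 FoxO1 deletion models, each sampled after 4 h of fasting followed by 1 h of refeeding or after 4 h of fasting alone. In the acute model, FoxO1lox/lox mice received AAV8.TBG.Cre (Cre) or, as controls, AAV8.TBG.eGFP (GFP) by tail vein, and livers were taken on day 21. Both acute groups therefore carry the floxed alleles and a virus, and the TBG promoter restricts Cre to hepatocytes. In the constitutive model, FoxO1 was deleted by Albumin-cre, which acts in liver cells from before birth (KO, genotype FoxO1-/- in the labels), and the controls (WT) are listed as FoxO1lox/lox without virus. With 3 libraries in each of the 8 groups there were 24 in all. The labels do not say whether the 3 came from separate animals, so each p-value measures the spread between these libraries, and the 2 models differ in virus, controls and library depth, which cannot be told apart when one is set against the other.

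Levels are the authors' FPKM (fragment numbers corrected for transcript length and library total). Relative depth, recovered from the width of the authors' confidence bounds, was 1.16 to 1.37 in 4 acute libraries (Cre refed 1, Cre fasted 1, GFP refed 3 and GFP fasted 3), 0.551 to 0.670 in the other 8 acute libraries and 1.10 to 1.27 in the constitutive ones. Foxo1 reached at most 0.571 FPKM in the deleted livers and at least 4.21 FPKM in the controls, and the summed level of 8 hepatocyte markers was 49347 to 73948 FPKM in every library, and no library went against its label for Foxo1. Because these are whole-liver samples, fewer cells of a type and less RNA per cell cannot be told apart.

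The transcription starts of genes that the results below turn on are shown to place the TOP tract in these members. RefSeq promoter entries on GRCm38.p6 matched 60 of the 81 genes. Each line gives 25 bases on the gene's own strand, 10 before the annotated start and 15 from it, so that the eleventh base is the first one transcribed, and capitals mark an unbroken run of C and T of at least 5 bases that holds that first base.
Rpl35a, chr16:33056472-33056496, plus strand: gcttgCCTTCCTCTTTCCgccatct
Rps6, chr4:86857353-86857377, minus strand: gaagtcgggCCTCTTTTTCgtgacg
Rps15a, chr7:118116133-118116157, minus strand: tttctgccaTCTTCCCTCgccggtg
Rpl38, chr11:114668570-114668594, plus strand: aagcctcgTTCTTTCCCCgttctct
Rps18, chr17:33955651-33955675, minus strand: cacttccgCTCTCTCTTCCacagga
Rpl18, chr7:45718061-45718085, plus strand: ctcgcaggccgctctttccccgccc
Rpl13a, chr7:45128731-45128755, minus strand: cctgcgacaagacctcctcctttcc
Rplp0, chr5:115559457-115559481, plus strand: cgggtttcgaggaccgcctggttct
RefSeq lists 3 starts for Rpl35a, of which the one shown has a run of 13 bases and the other 2 have runs of 4 and 0, while each other gene shown has 1. The first 5 sequences carry such a run and the last 3 do not at the annotated base. In Rpl18, however, a long pyrimidine stretch begins at the very next base, and in Rpl13a one begins shortly after the start. Of the 60 matched genes 20 (33.3%) had a run of at least 5 holding an annotated start, against 3191 (11.8%) of the 27025 genes in the same RefSeq table. The letters CTTTCC, searched within 25 bases on each side of the start on the gene's strand, occurred in 18.3% of the 60 and in 2.92% of all genes (20% and 5.45% when both strands were searched). The letters TATAAA, searched in the 50 bases before the start on the gene's strand, occurred in 0 of the 60 and in 3.15% of all genes. These are matches of letters at annotated starts, which may lie some bases from the starts used in liver.

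The ribosomal protein genes were among the highest in the liver. In mean FPKM over the 24 libraries 71 of the 81 exceeded 100, 58 exceeded 200 and 6 exceeded 500. The median of the 77 standard genes was 308 FPKM, against 6.29 FPKM for all loci that passed the filter (at least 1 FPKM in at least 3 libraries). That filter was passed by 77 of the 81 genes, all but Rpl26, Rpl3l, Rpl10l and Rpl39l, and 72 of the 77 lay in the top 10% of loci. Together the 81 genes held 3.74% to 5.79% of all FPKM in a library (median 4.30%).

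The 5 highest genes were Rplp1 at 1089 ± 181 FPKM, Rpl38 at 942, Rpl41 at 812, Rps29 at 770 and Rps18 at 738 (means over 24 libraries, SD for Rplp1). Rplp1 belongs to the P stalk of the large subunit, which recruits translation factors, and the other stalk proteins were lower, with Rplp0, its base, at 253 ± 21.9 FPKM. Median levels of small-subunit genes exceeded those of large-subunit genes in every library, by a ratio of 1.11 to 1.33. The lowest standard genes were Rpl26 at 0.39 FPKM, Rpl30 at 4.96 FPKM and Rps15a at 15.5 ± 1.94 FPKM. Rpl26 and Rpl30 share their locus with a second entry, as described next, whereas Rps15a does not. The pseudogene entries Rps15a-ps6 and Rps15a-ps4 averaged 7.87 and 0.75 FPKM, and whether reads were divided between them and Rps15a was not tested.

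**Figure D1:**
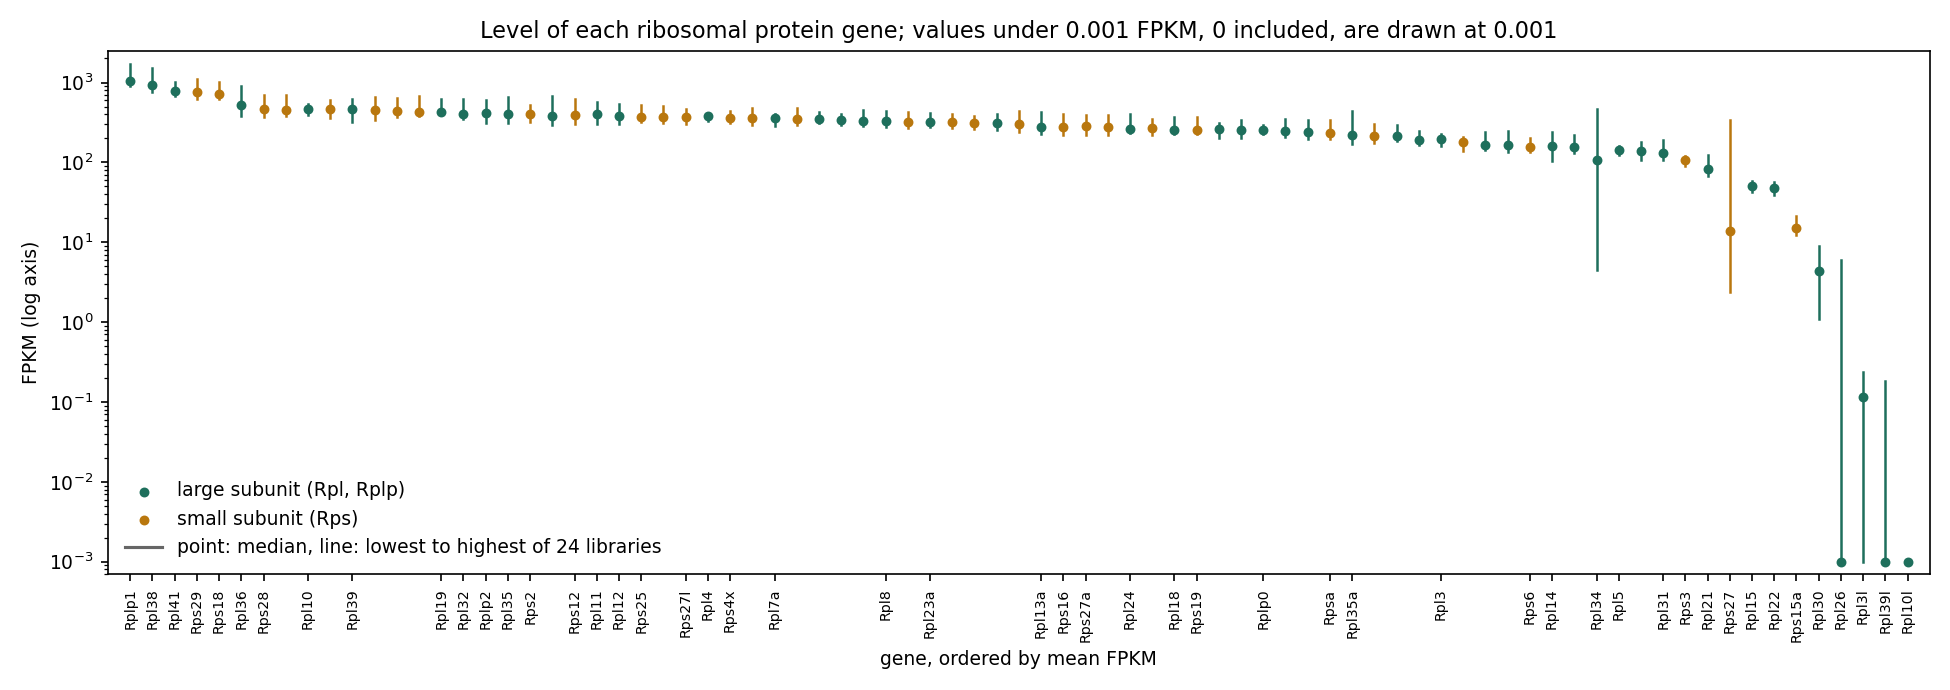
Level of each of the 81 ribosomal protein genes, ranked by mean, as the median (point) and range (line) over the 24 libraries, in FPKM on a log axis. Gene names are given for genes that the text describes, and values under 0.001 FPKM are drawn at 0.001. Most genes lie between 100 and 1000 FPKM. The low end holds the paralogs Rpl3l, Rpl10l and Rpl39l, the genes Rpl26, Rpl30 and Rps27 that share a locus with a second entry, and also Rps15a, Rpl22, Rpl15 and Rpl21.

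At 4 loci a ribosomal protein gene overlaps a second entry over nearly the same bases, and the deposited FPKM of the locus are spread over both. These are Rpl26 with Gm15772 (chr11:68901566-68904534), Rpl30 with Gm12191 (chr15:34440508-34443276), Rpl34 with Rpl34-ps1 (chr3:130726831-130730308) and Rps27 with Gm9846 (chr3:90212667-90213648), in mm10. The part given to the named gene differed greatly between libraries. Rps27 alone had 2.41 to 343 FPKM, with 2.41 to 12.3 FPKM in the 4 deeper acute libraries and 9.28 to 343 FPKM in the 8 shallower ones, and 3.76 to 83.4 FPKM in the constitutive libraries. Rpl34 alone had 4.49 to 465 FPKM, with 6.01 to 8.80 FPKM in the deeper and 89.2 to 310 FPKM in the shallower acute libraries, but it spanned 4.49 to 465 FPKM in the constitutive libraries, whose depth was near that of the deeper acute ones. Rpl26 exceeded 1 FPKM in only 2 libraries, at 5.93 FPKM in Cre refed 1 and 3.50 FPKM in WT refed 1.

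Summed over both entries, the 4 loci were ordinary ribosomal protein genes in level, at 479 ± 56.0 FPKM for Rpl26, 339 ± 68.1 for Rpl30, 305 ± 80.3 for Rpl34 and 715 ± 102 for Rps27 (SD, n = 24). Among members with a mean of at least 1 FPKM, Rpl34, Rps27 and Rpl30 were also the most variable (SD of log2(FPKM + 1) of 2.21, 1.99 and 0.57). Of the same members Rpl4, Rpl15 and Rpl7a varied least (0.090, 0.108 and 0.108). None of the 4 genes was called in any comparison below.

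**Figure D2:**
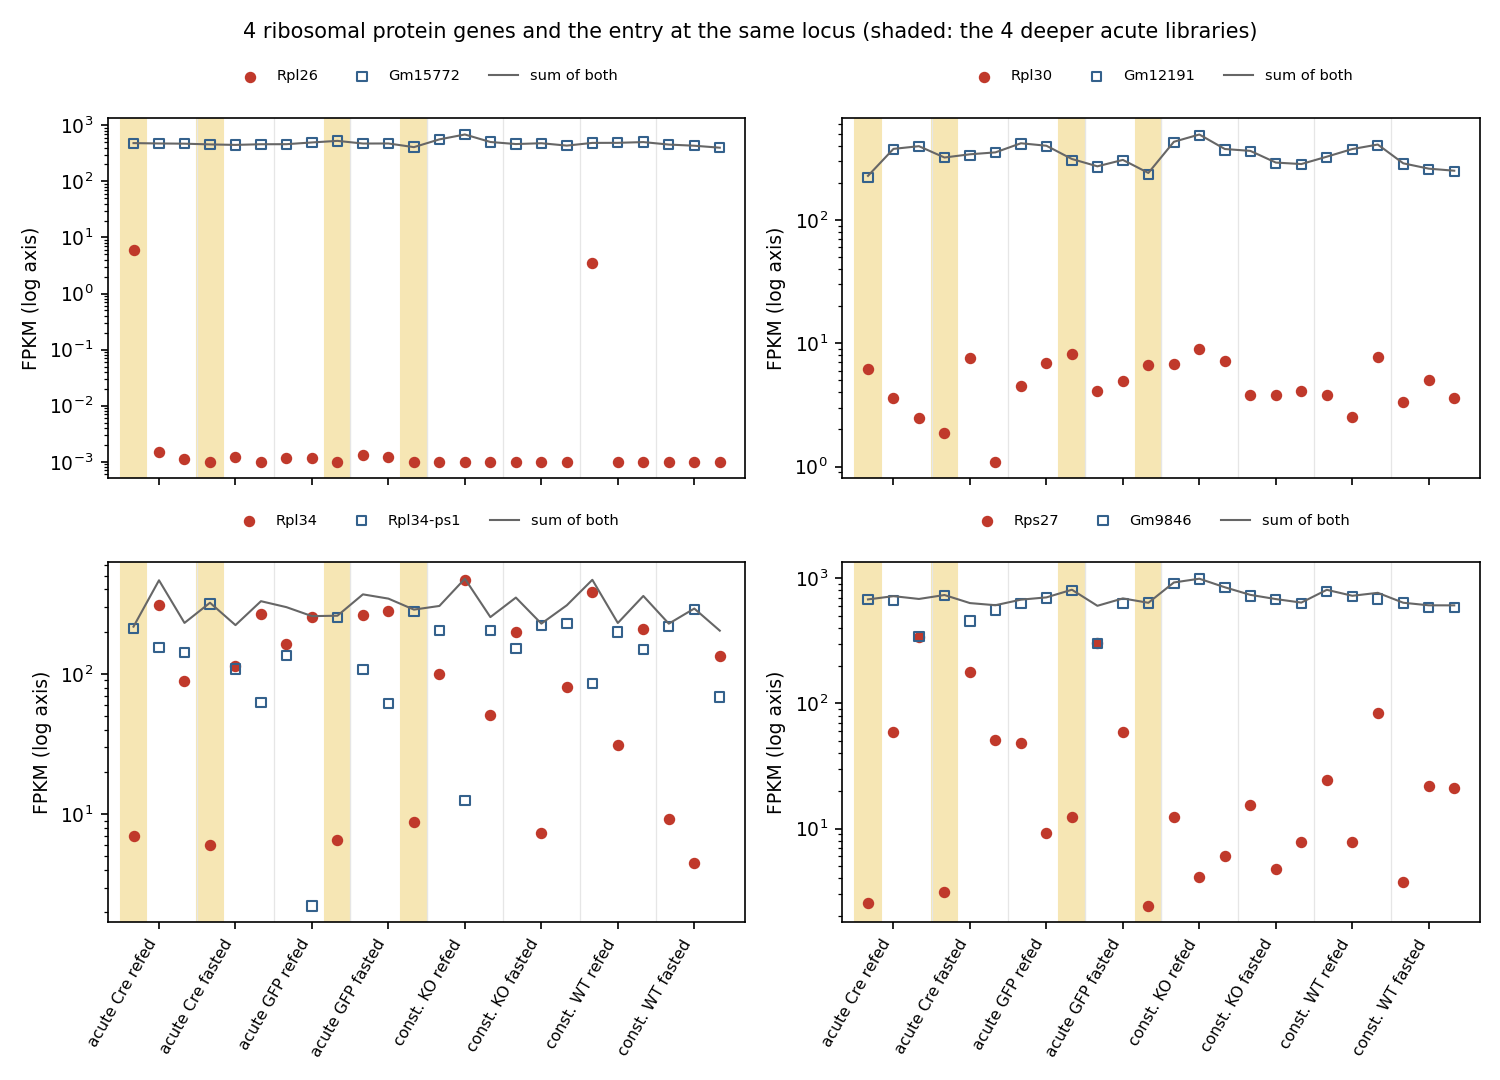
FPKM (log axis) of 4 ribosomal protein genes (red), the second entry at the same locus (blue squares) and their sum (line) in each of the 24 libraries, with the 4 deeper acute libraries shaded and values under 0.001 drawn at 0.001. The sums vary far less than the division between the entries, and Rps27 and Rpl34 alone are at most 12.3 FPKM in the shaded libraries.

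The paralogs were near 0 with one exception. Rpl3l, which replaces Rpl3 in striated muscle, averaged 0.104 FPKM beside 192 FPKM for Rpl3. Rpl10l, which stands in for the X-linked Rpl10 during spermatogenesis, was listed at 0 in all 24 libraries beside 467 FPKM for Rpl10. Rpl39l, a testis-enriched copy of Rpl39, was above 0 in 3 libraries with a mean of 0.022 FPKM beside 459 FPKM for Rpl39. Rps27l, a paralog of Rps27 known as a p53 target, reached 378 ± 34.5 FPKM. The small-subunit gene Rps4x averaged 364 FPKM.

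Ribosomal protein mRNAs were higher in refed than in fasted livers of the constitutive model. On the mean over KO and WT livers, 56 of the 77 tested genes were higher after refeeding and 0 were lower (limma on log2(FPKM + 1), Benjamini-Hochberg adjusted p under 0.05 over 10375 loci), where 6.79% of all loci were called higher and 7.57% lower. This mean was added after the data had been seen, and the counts within each genotype, given below, were lower. All 77 changes were above 0. The median change was 0.27 on the log2 scale, against a median of -0.01 over all loci. With median-of-ratios scaling of the libraries 64 were called (background 8.72%). In 29 genes each of the 6 refed libraries exceeded each of the 6 fasted ones, which held higher for 2.87% of all loci. The called genes comprised large-subunit and small-subunit members, among them Rplp0 and Rplp1 of the P stalk, both proteins of the 5S particle and the qPCR reference genes.

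Rpl18, a large-subunit protein, had the smallest p. It stood at 331, 367 and 298 FPKM in KO refed livers and 255, 255 and 234 FPKM in KO fasted livers, and at 285, 276 and 288 FPKM in WT refed livers and 251, 232 and 224 FPKM in WT fasted livers. Refed and fasted libraries did not overlap in either genotype, and the log2 change was 0.34 with a standard error (SE) of 0.059 (limma, adjusted p = 0.00587).

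Rpl35a, a large-subunit protein mutated in some cases of Diamond-Blackfan anaemia, had the largest change among the called genes. Its values were 316, 435 and 292 FPKM in KO refed livers and 222, 225 and 258 FPKM in KO fasted livers, and 282, 287 and 350 FPKM in WT refed livers and 218, 193 and 235 FPKM in WT fasted livers. Every refed library was above every fasted one, with a log2 change of 0.52 (SE 0.102, limma adjusted p = 0.00856). Rpl38, Rpl13a, Rps12, Rpl35 and Rpl36 followed, at 0.37, 0.37, 0.36, 0.36 and 0.35.

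Rps6, the small-subunit protein phosphorylated by S6 kinase downstream of mTORC1, had 194, 201 and 181 FPKM in KO refed livers and 155, 157 and 149 FPKM in KO fasted livers. In WT livers it had 184, 167 and 184 FPKM refed and 161, 153 and 151 FPKM fasted. No refed library fell within the fasted range, and the log2 change was 0.26 (SE 0.049, limma adjusted p = 0.0074). Rps27a, made as a fusion with ubiquitin, changed by 0.35 (SE 0.063, limma adjusted p = 0.00682). Rps15a, of the small subunit, had 18.0, 21.1 and 17.2 FPKM in KO refed livers and 14.4, 14.8 and 13.7 FPKM in KO fasted livers, and 16.3, 16.6 and 17.1 FPKM in WT refed livers and 14.9, 12.2 and 12.6 FPKM in WT fasted livers. Its groups also did not overlap, and the log2 change was 0.34 (SE 0.066, limma adjusted p = 0.00792).

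In the P stalk, Rplp1 had 1436, 1687 and 1260 FPKM in KO refed livers and 1214, 1133 and 1008 FPKM in KO fasted livers, and 1149, 1156 and 1183 FPKM in WT refed livers and 1051, 963 and 906 FPKM in WT fasted livers. Refed values exceeded fasted ones within each genotype, though the highest KO fasted library was above all WT refed ones (log2 change 0.32, SE 0.077, limma adjusted p = 0.0203). Rplp0 changed by 0.23 (SE 0.052, limma adjusted p = 0.0172), while Rplp2, at 0.20, missed the threshold (limma adjusted p = 0.134). Rpsa, the small-subunit protein also known as the laminin receptor, changed by 0.31 (limma adjusted p = 0.0211). Rpl5 and Rpl11, which with the 5S RNA form the particle that can bind the p53 regulator Mdm2, changed by 0.18 and 0.33 (limma adjusted p = 0.0373 and 0.0148), and Rps19, the gene most often mutated in Diamond-Blackfan anaemia, by 0.27 (limma adjusted p = 0.0287).

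All 6 members in use as reference genes for quantitative PCR were called higher after refeeding in the constitutive model. Besides Rplp0 these were Rpl13a at 0.37, Rpl19 at 0.23, Rpl32 at 0.31, Rps18 at 0.29 and Rps3 at 0.19 on the log2 scale, with limma adjusted p-values of 0.0142, 0.0363, 0.0138, 0.0145 and 0.0285. Rpl13a, for example, stood at 378, 432 and 300 FPKM in KO refed livers and 276, 276 and 256 FPKM in KO fasted livers. In WT livers it was 316, 299 and 313 FPKM refed and 274, 246 and 240 FPKM fasted. The groups did not overlap.

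Among the 5 highest genes Rpl38 and Rps29 were called (0.37 and 0.29, limma adjusted p = 0.0246 and 0.0255), but Rpl41, the smallest ribosomal protein, was not (0.23, limma adjusted p = 0.0562). In all, 21 of the 77 were not called. Rpl4 was the least variable of the members with a mean of at least 1 FPKM. It had 384, 380 and 365 FPKM in KO refed livers and 369, 360 and 339 FPKM in KO fasted livers. In WT livers it had 385, 348 and 395 FPKM refed and 354, 342 and 334 FPKM fasted. The refed and fasted ranges of Rpl4 overlapped and its change was 0.10 (SE 0.050, limma adjusted p = 0.178). Rps2 was likewise 0.10 (limma adjusted p = 0.310). Rps4x was called at 0.20 (limma adjusted p = 0.0340). Rpl3 and Rpl10, the parents of Rpl3l and Rpl10l, were not called, at 0.19 and 0.15 (limma adjusted p = 0.0620 and 0.0634). The paralog Rps27l was not called either, at 0.13 (limma adjusted p = 0.202).

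**Figure D3:**
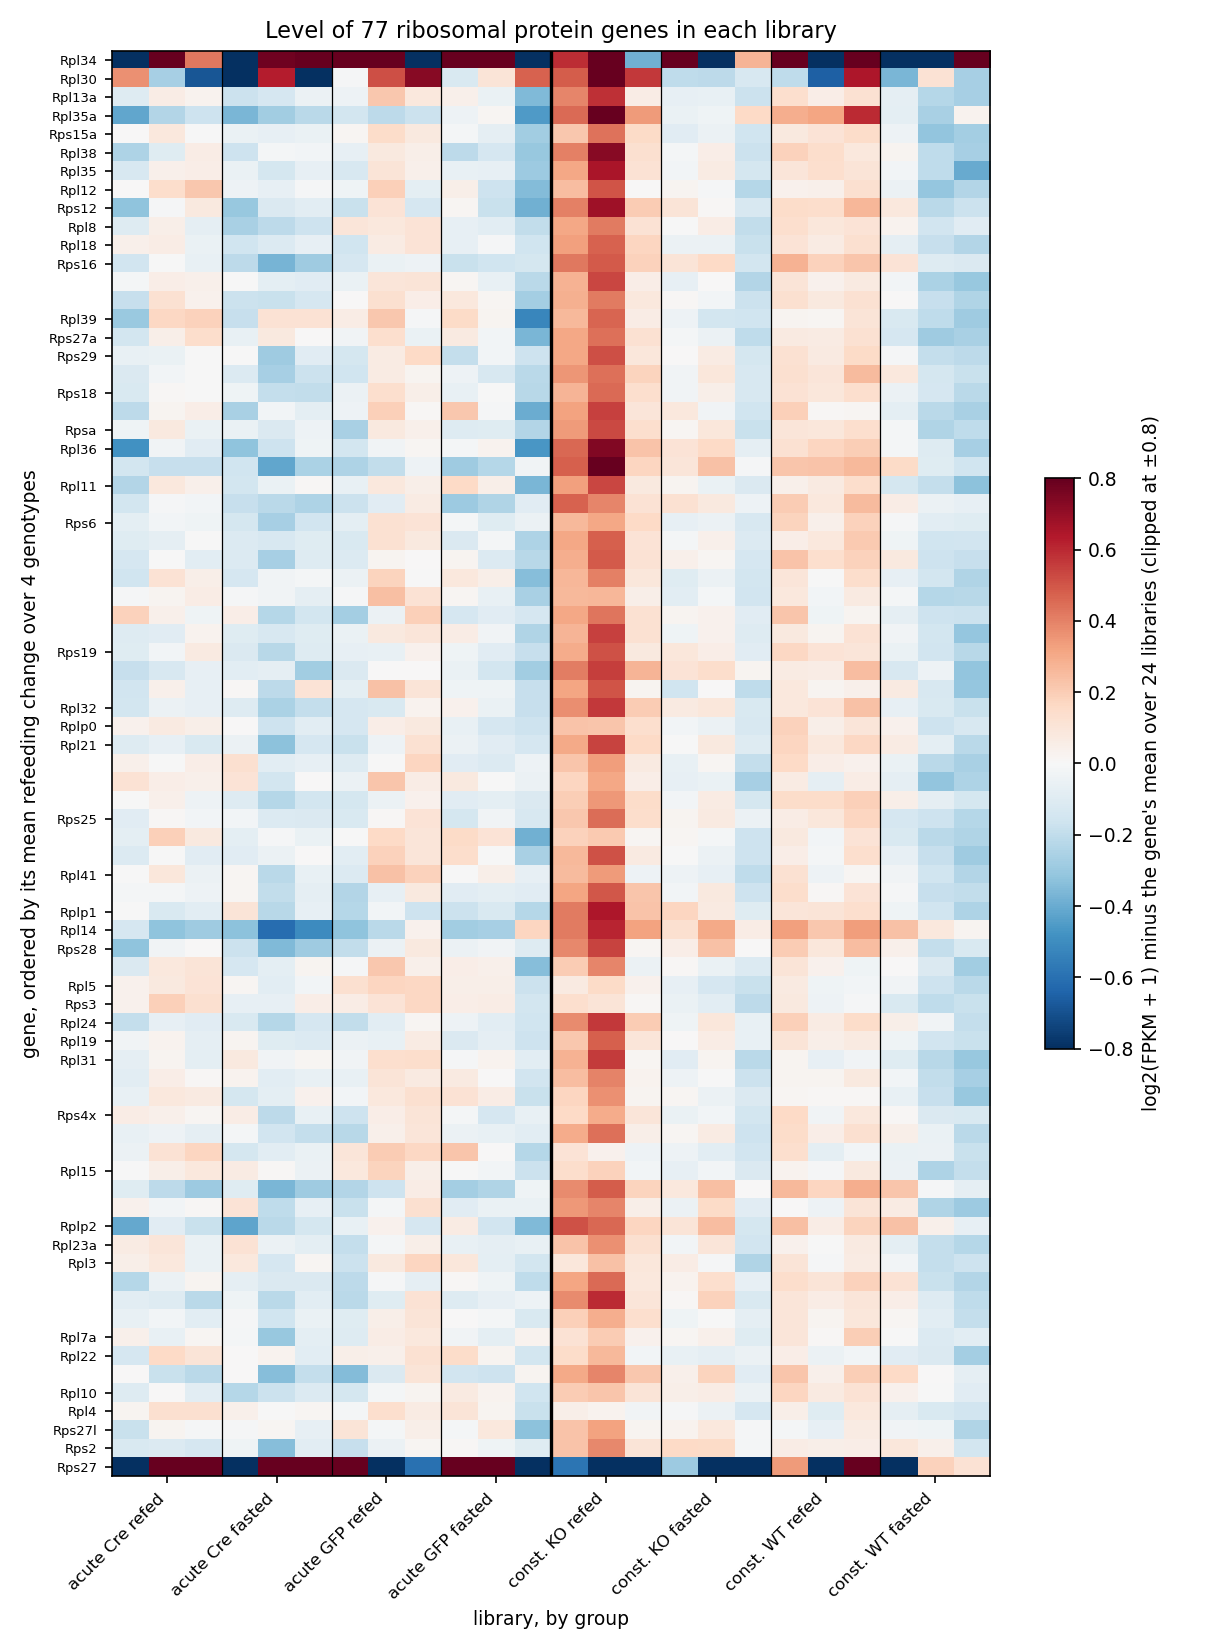
log2(FPKM + 1) of the 77 tested genes (down the page) in the 24 libraries (across), each minus that gene's mean over all libraries, clipped at 0.8 either way, with names for genes that the text describes. The 6 constitutive refed libraries, above all KO refed 2, are above the gene means for most genes, and the acute refed and fasted libraries lie closer together.

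The count of 56 depended on single libraries, and the share of all loci called is not given for the fits that leave 1 out. Leaving out each of the 12 libraries in turn gave 23 to 66 called genes, with 36 without KO fasted 1, 27 without KO fasted 3, 30 without WT fasted 2, 27 without WT fasted 3, 32 without KO refed 2, 36 without WT refed 1 and 23 without WT refed 3, while the median change stayed between 0.23 and 0.32. Within KO livers alone, 11 of 77 genes were called higher and 0 lower (background 2% of loci higher and 3.68% lower), with a median of 0.32, and among those with the largest changes were Rpl35a, Rpl13a, Rpl18, Rpl24 and Rps27a at 0.55, 0.44, 0.41, 0.38 and 0.38. All 11 were among the 56. The refed and fasted libraries did not overlap for 54 of the 77 genes (background 13.1%). No gene was called when any KO library other than KO refed 3 was left out, whereas 47 were called without KO refed 3 and 39 with median-of-ratios scaling (background 4.07%). Within WT livers alone 0 of 77 were called (background 0.154% higher and 0.164% lower), with all 77 changes above 0 and a median of 0.22. There 42 had an unadjusted p under 0.05. For this and later counts of unadjusted p-values the share of all loci is not given. Groups did not overlap for 58 genes (background 10.2%). The smallest adjusted p there was 0.134 (limma), for Rps27a at 0.31 and Rpl35a at 0.50.

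The constitutive model's response can be seen in the total. The 81 genes summed to 30728, 34934 and 26820 FPKM in KO refed livers and 25320, 25665 and 22941 FPKM in KO fasted livers. In WT livers they summed to 27425, 25902 and 27456 FPKM refed and 24729, 22460 and 21627 FPKM fasted. All 6 refed sums were above all 6 fasted sums, and KO refed 2 was the highest of the 24.

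**Figure D4:**
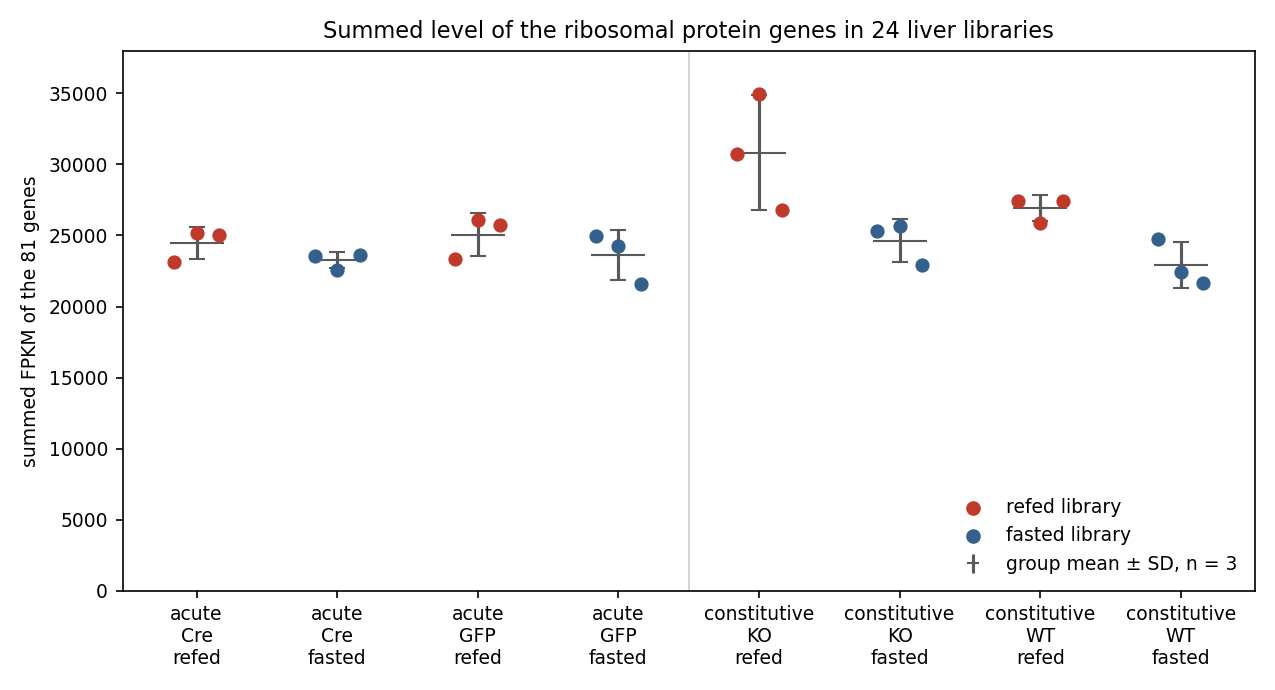
Summed FPKM of the 81 ribosomal protein genes in each library (points) with the group mean ± SD (n = 3 each). KO refed livers averaged 30827 ± 4058 and KO fasted livers 24642 ± 1483, and WT refed livers averaged 26927 ± 888 and WT fasted livers 22939 ± 1605, while the 4 acute groups lie between 23275 and 25059.

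In the acute model refed and fasted livers differed in few of these genes. On the mean over Cre and GFP livers, also added after the data had been seen, 1 of the 77 was called higher and 0 lower, where 15.6% of all 10452 loci were called higher and 4.1% lower. The median change was 0.08, against 0.07 over all loci, and 72 of the 77 were above 0. The gene called was Rpl8, of the large subunit, with 306, 339 and 312 FPKM in Cre refed livers and 274, 283 and 292 FPKM in Cre fasted livers, and 350, 348 and 354 FPKM in GFP refed livers and 313, 309 and 286 FPKM in GFP fasted livers. The refed libraries were higher within each genotype, but Cre refed and GFP fasted values overlapped (log2 change 0.19, SE 0.050, limma adjusted p = 0.0221). With median-of-ratios scaling 0 genes were called (background 6.73%), as without the 4 deeper libraries (background 5.12%). With that scaling the members' median was -0.03 and that of all loci -0.02, so the sign of the acute change depended on the scaling.

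Rpl35a, the largest change among the called genes of the constitutive model, overlapped between states here, with 173, 196 and 205 FPKM in Cre refed livers and 178, 190 and 198 FPKM in Cre fasted livers, and 208, 199 and 204 FPKM in GFP refed livers and 224, 233 and 168 FPKM in GFP fasted livers. The ranges of refed and fasted values overlapped in both genotypes. Rps15a was the 1 member with all 6 refed acute libraries above all 6 fasted ones (background 7.06% of loci), at 15.4, 16.4 and 15.3 FPKM in Cre refed livers and 14.8, 14.6 and 14.8 FPKM in Cre fasted livers, and 15.5, 17.2 and 16.3 FPKM in GFP refed livers and 15.2, 14.6 and 12.5 FPKM in GFP fasted livers. Its change of 0.15 did not pass (limma adjusted p = 0.0968). Within Cre livers alone 0 of 77 were called (background 4.3% higher and 1.15% lower, 3 at an unadjusted p under 0.05), with a median of 0.07, which was -0.04 with median-of-ratios scaling, and the smallest adjusted p at 0.0971 for Rps16 (limma, 0.22), followed by Rpl8 at 0.17. Within GFP livers alone 0 of 77 were called (background 4.81% higher and 1.75% lower, 6 at an unadjusted p under 0.05), with a median of 0.10, which was just under 0 with that scaling, and the smallest adjusted p at 0.0949 for Rpl8 (limma, 0.21), followed by Rps15a at 0.20. All refed libraries were above all fasted ones for 14 genes in Cre livers (background 23%) and 8 in GFP livers (background 19.9%).

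The difference between the models was tested directly, as the refeeding change in the acute model minus that in the constitutive model over all 24 libraries. Its median over the 77 genes was -0.18, against 0.09 over all loci, and 76 of the 77 were below 0. No gene passed after adjustment (0 of 77 lower and 0 higher, background 0.215% and 1.22%, and 29 with an unadjusted p under 0.05). Rpl35a came closest at -0.53 (SE 0.137, limma adjusted p = 0.0532), followed by Rpl32 at -0.27 (limma adjusted p = 0.0931). With median-of-ratios scaling 9 genes were lower (background 1.09%) and the median was -0.30.

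Over all 4 genotypes together 62 of 77 genes were higher after refeeding and 0 lower (background 19.9% higher and 10.4% lower, median 0.17 against 0.04 over all loci), and these 62 included all 56 of the constitutive model. The 6 with the largest change were Rpl13a, Rpl35a, Rps15a, Rpl38, Rpl35 and Rpl12, at 0.26, 0.26, 0.24, 0.24, 0.23 and 0.23. Rps15a was the only member whose 12 refed libraries were all above its 12 fasted ones (background 0.599%). With median-of-ratios scaling 40 were called (background 14.4%). For the loci with a second entry, the sum of both averaged 511 ± 61.2 FPKM refed and 448 ± 25.5 FPKM fasted for Rpl26, 380 ± 67.0 FPKM refed and 298 ± 40.2 FPKM fasted for Rpl30, 778 ± 103 FPKM refed and 652 ± 48.3 FPKM fasted for Rps27, and 319 ± 99.2 FPKM refed and 291 ± 56.7 FPKM fasted for Rpl34 (SD, n = 12 each).

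**Figure D5:**
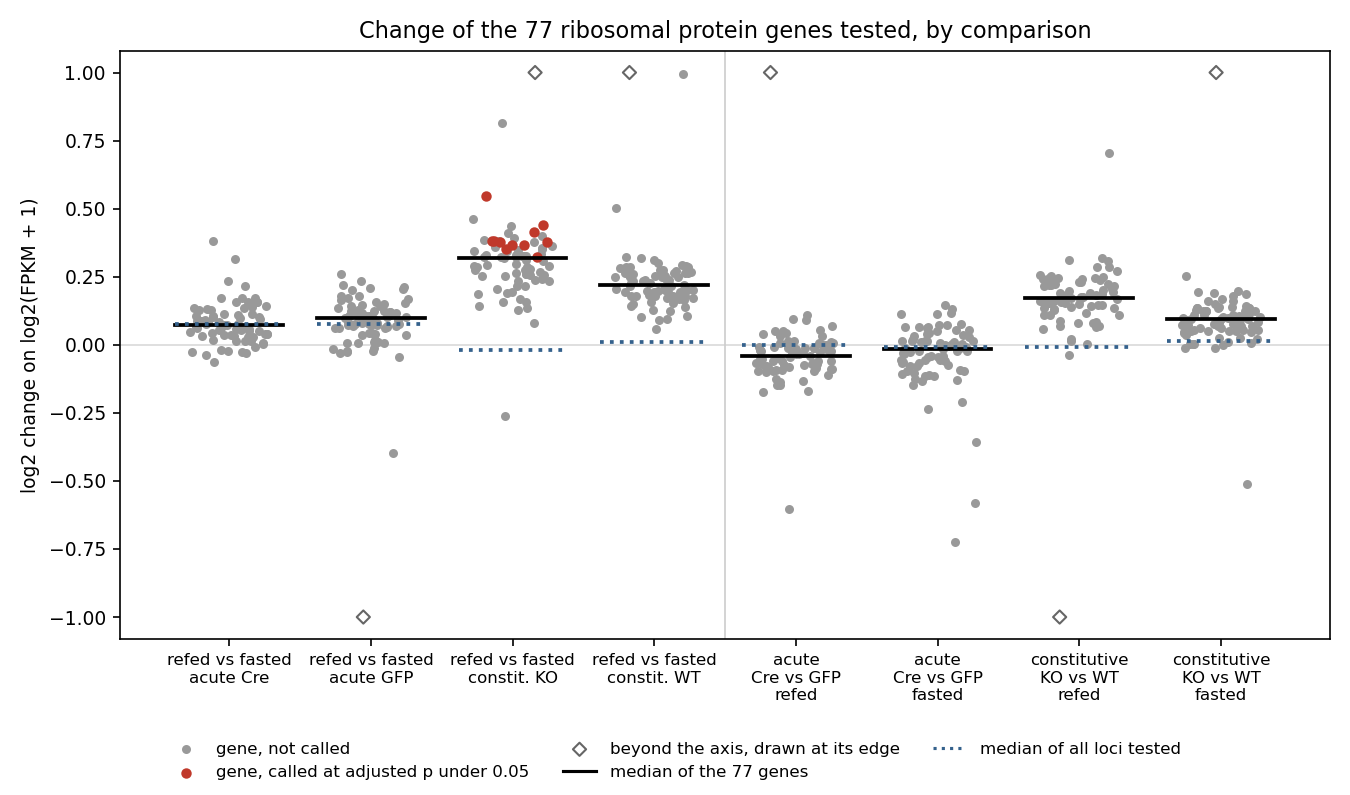
Change of each of the 77 tested genes on log2(FPKM + 1) in 4 refeeding comparisons (left) and 4 deletion comparisons (right), with called genes in red, the median of the 77 as a black bar and the median of all loci dotted. Diamonds mark genes beyond the axis. The refeeding medians are 0.32 in KO and 0.22 in WT livers, well above the dotted lines, and 0.07 in Cre and 0.10 in GFP livers, close to them and below 0 with median-of-ratios scaling.

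FoxO1 deletion changed no ribosomal protein gene past the threshold in any comparison. In the acute model Cre and GFP livers had 0 of 77 called when refed (background 0.105%, 0 with an unadjusted p under 0.05, median -0.04) and 0 of 77 when fasted (background 0.297%, 1 with an unadjusted p under 0.05, median -0.01). The smallest p-values belonged to Rpl8 and Rpl31 refed, at -0.14 and -0.12, and to Rpl14 and Rps28 fasted, at -0.36 and -0.21 (limma adjusted p = 0.598, 0.664, 0.305 and 0.452). Rpl14, a large-subunit protein, had 125, 103 and 110 FPKM in Cre fasted livers, against 129, 131 and 177 FPKM in GFP fasted livers. The groups did not overlap, which held lower for 4 of the 77 genes and 9.55% of all loci.

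In the constitutive model the members were mostly higher in KO livers, without any call. Refed KO and WT livers had 0 of 77 called (background 0.0289%), a median of 0.17 against -0.01 over all loci, 75 of 77 changes above 0, and 17 genes higher and 1 lower at an unadjusted p under 0.05. Rplp1 had 1436, 1687 and 1260 FPKM in KO refed livers, against 1149, 1156 and 1183 FPKM in WT refed livers, a change of 0.32 (limma adjusted p = 0.413). Its groups did not overlap, and it was 1 of 12 members higher without overlap in that comparison, as were 6.8% of all loci. The median of 0.17 ranged from 0.09 without KO refed 2 to 0.27 without KO refed 3. On the mean over both states, all 6 erythroid, 8 endothelial and 7 Kupffer cell markers tested were also above 0 in KO against WT livers (medians 0.29, 0.22 and 0.22), with 1 of them, Clec4g, called, and their part in the result was not tested.

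Fasted KO and WT livers had 0 of 77 called (background 0.0964%, 2 with an unadjusted p under 0.05), a median of 0.09 against 0.02 over all loci and 74 of 77 changes above 0, with 5 genes higher without overlap (background 7.52%). The median ranged from 0.05 to 0.15 when 1 library was left out. Because the members varied together, as described below, the 77 changes are not separate observations. Rps25, of the small subunit, was at 0.19 (limma adjusted p = 0.724). On the mean over both states 0 of 77 were called in the constitutive model (background 0.723% either way, 24 with an unadjusted p under 0.05, median 0.14), with Rplp1 at 0.26 (limma adjusted p = 0.214). On the same mean 0 of 77 were called in the acute model (background 1.47% either way, median -0.03), with Rpl8 at -0.12 and Rpl14 at -0.22 (limma adjusted p = 0.307 and 0.324).

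Over both models and states together 0 of 77 genes differed between FoxO1-deleted and control livers (background 3.14% either way, 10 with an unadjusted p under 0.05). Rplp1 at 0.17 and Rpl23a at 0.12 came closest (limma adjusted p = 0.0672 and 0.120). Whether deletion altered the refeeding change was tested as an interaction in each model. In the acute model 0 of 77 genes were called (background 0.0287%), with Rpl38 at -0.26 and Rpl31 at -0.17 leading (limma adjusted p = 0.809 and 0.832). There 35 of the 77 were above 0, with a median of -0.01. In the constitutive model 0 of 77 were called (background 0%), with Rpl30 at 0.71 and Rpl24 at 0.19 leading (limma adjusted p = 0.963 for both). There 69 of the 77 were above 0, with a median of 0.08. No gene had an unadjusted p under 0.05 in either interaction, and Rpl30 is 1 of the 4 genes with a second entry at the locus.

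Of 20 ribosome biogenesis factors, 11 were called higher after refeeding in the constitutive model (background 6.79%) and 16 in the acute model (background 15.6%) on the means over genotypes, with medians of 0.29 and 0.42 and 0 called lower in either (12 and 13 called with median-of-ratios scaling). The box C/D snoRNP core proteins Nop58 and Nop56, the nucleolar phosphoprotein Nolc1 and the rRNA methyltransferase Nop2 were the largest, at 0.83, 0.80, 0.84 and 0.67 in the constitutive and 1.14, 1.10, 1.11 and 1.01 in the acute model.

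The counts of the other related lists stand against the same backgrounds. Of 24 translation factors and other translation-related proteins encoded by TOP mRNAs, 7 were called higher in the constitutive model (median 0.14). These included Eef1b2, Eef1d, Gnb2l1 and Eif4a1 at 0.25, 0.25, 0.22 and 0.29. In the acute model 2 were called higher (median 0.11, a share under the background), Eef1g at 0.24 and Eif4a1 at 0.35. With median-of-ratios scaling the acute median was 0.01, with 1 called higher and 2 lower. Of 76 mitochondrial ribosomal proteins 12 were higher in the constitutive model (median 0.11) and 11 in the acute model (median 0.09, which was -0.01 with 2 called under that scaling), the acute count being near the background. Of 6 tested ribosomal-protein-like genes outside the symbol rule, 5 were higher in the constitutive model, among them Rpl22l1 at 0.41, and 3 in the acute model (1 with that scaling). Fau, a ribosomal protein made as a fusion with a ubiquitin-like protein, averaged 450 ± 57.3 FPKM (SD, n = 24) and was called in neither. No gene of these lists was called in the deletion comparison over both models and states.

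Other gene lists were set beside the refeeding result, against the same backgrounds (and 4.1% of loci lower in the acute model). Of 10 heat shock genes 6 were higher in the constitutive and 9 in the acute model (7 and 7 with median-of-ratios scaling), while of the immediate early genes 1 of 8 was higher in the constitutive model and 6 of 9 were lower in the acute model. Erythroid markers summed to 444 to 833 FPKM in KO refed livers and 332 to 822 FPKM in KO fasted livers, and to 321 to 539 FPKM in WT refed livers and 358 to 798 FPKM in WT fasted livers, with 0 of 6 called for refeeding, and to 38.4 to 337 FPKM in the acute livers. Kupffer cell markers summed to 77.3 to 97.1 FPKM in KO refed livers and 71.1 to 96.8 FPKM in KO fasted livers, and to 77.2 to 82.2 FPKM in WT refed livers and 39.5 to 72.8 FPKM in WT fasted livers. Endothelial markers summed to 50.5 to 53.7 FPKM in KO refed livers and 56.6 to 64.5 FPKM in KO fasted livers, and to 41.3 to 50.6 FPKM in WT refed livers and 39.8 to 45.6 FPKM in WT fasted livers. In the constitutive refeeding mean 0 of 7 Kupffer cell, 0 of 8 endothelial, 2 of 8 stellate, 0 of 2 cholangiocyte and 0 of 2 neutrophil markers tested were called, and in the acute one 6 of 8 endothelial and 3 of 8 stellate markers were higher (3 and 3 with median-of-ratios scaling). Lymphocyte markers summed to 1.13 to 5.01 FPKM over all libraries. The part of these cell types in the result was not tested.

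Transcript lengths of the members ran from 367.5 to 3706 nt with a median of 704 nt, and changes were compared between shorter and longer transcripts, without a test. In the KO refeeding comparison members under 700 nt had a median of 0.33 and longer ones 0.27, against 0.19 for 166 other loci under 700 nt and 0.02 for 1077 longer loci with a mean of at least 40 FPKM. In WT livers the members' medians were 0.25 and 0.20 and those of the other loci 0.11 and 0.02. The part of transcript length in the result was not tested. In addition, 22 members hold 31 snoRNA entries within their bounds. Members with a pyrimidine run at the RefSeq start had a median refeeding change of 0.30 in the constitutive model (14 of 20 called), those without one 0.24 (25 of 36 called) and those with no RefSeq entry 0.28 (17 of 21 called), and their acute medians were 0.10, 0.08 and 0.06. Rpl18 and Rpl13a, whose stretches begin just after the annotated start, count among those without one.

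The members varied together within groups. The median SD of log2(FPKM + 1) within a group was 0.117 for the members and 0.128 for the 1467 loci with a mean of at least 40 FPKM. Across the 24 libraries, after subtraction of group means, the median pairwise correlation between 2 members was 0.654. This describes these libraries, which differed in depth, and no such value for other loci is given beside it. The part of depth and preparation in it was not tested. A library's median log2 level of the members had a pooled SD of 0.091 between replicates. The counts of members with changes above 0 are therefore not counts of separate observations.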

How the data were processed

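Liver mRNA was sequenced from stranded TruSeq libraries, per the labels' protocols, in 24 samples of 8 groups of 3. The authors deposited 1 table per sample of FPKM values per locus; the submitters' processing notes name HISAT2, Cufflinks and Cuffdiff and the mm10 build. FPKM are not counts, so no count model was used, and sequencing depth is known only relative to other libraries, from the width of the deposited confidence bounds.

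All loci were analysed as log2(FPKM + 1) with limma 3.58.1 (R 4.3.3), its trend option on, after leaving out 14 loci with failed estimates and those without 1 FPKM in at least 3 fitted libraries. The acute and the constitutive libraries were each fitted together, and all 24 for pooled comparisons, without a replicate term. P-values were adjusted over all loci kept (Benjamini-Hochberg) in each of 17 comparisons and called at 0.05. Fold changes on this scale understate those of low genes. The 4 means over genotypes or states within 1 model were added after the data had been seen. The script was tested on simulated data. Figures and summaries used Python 3.11.15, pandas 2.3.3, numpy 2.4.6 and matplotlib 3.10.9.

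The members and gene lists were chosen with earlier results of these data known. Genes named are the P stalk and Rpsa, Rpl5, Rpl11 and Rps19, common qPCR reference genes, paralogs with their partners, the 5 highest and 3 lowest members, the 3 most and 3 least variable of those with a mean of at least 1 FPKM, and, per comparison, the 6 called members with the largest change or, with none called, the 2 smallest p-values. Up to 4 called genes are named per list. Some genes that this rule selects are not reported here. Rps6, Rpl18, Rps27a, Rps15a, Rpl4 and Rps2 in the constitutive mean, and Rpl35a in the acute one, were named after their values were seen. Alternatives were median-of-ratios scaling, a pseudocount of 0.1, no filter, a replicate block, the compared groups alone, omission of each library or of the 4 deeper acute libraries, and the 4 shared loci as sums.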

Additional observations from a re-analysis of the deposited data

How the results depend on the processing

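For the genes selected by the naming rule in their comparisons, not all 77, 4200 values were recomputed under alternatives. Of these, 4073 kept their side of the threshold, 100 lost their call, 27 gained one and 0 changed sign with a call. The 4073 can include changes of sign in genes called in neither fit. With median-of-ratios scaling the median refeeding change was -0.0023 in GFP and -0.039 in Cre livers, and -0.025 on the acute mean with 0 genes called. The same scaling gave 39 called genes in KO livers, 40 over 4 genotypes, and 9 lower with a median of -0.298 for acute minus constitutive. KO calls numbered 2 with no filter, 1 with the compared groups alone and 22 with the replicate block. For these settings, and for the single-library omissions and the replicate block below, the shares of all loci called are not given. Without the 4 deeper acute libraries the acute mean had 0 calls and the acute interaction a median of 0.115. The cause of these shifts was not tested. Leaving out 1 library at a time gave 0 to 47 calls for KO refeeding (median 0.23 to 0.40), 23 to 66 for the constitutive mean, 0 to 2 for the acute mean, 0 to 1 for deletion over 4 settings, 0 to 1 lower for acute minus constitutive, and interaction medians of -0.06 to 0.03 (acute) and 0.0013 to 0.171 (constitutive), with a median of 0.0925 to 0.265 for KO against WT refed. Same-number correlations ran from -0.349 to 0.378 (median -0.018) in the acute model, with a median of -0.015 for different numbers. In the constitutive model they ran from -0.156 to 0.281 (median 0.086), with a median of -0.042 for different numbers. There 8 of 18 same-number pairs and 6 of 36 different-number pairs exceeded 0.1. Whether replicate numbers mark a shared source of variation was not tested. The replicate block gave 62 calls on the constitutive mean. The number of libraries, 3 a group, and a depth known only in relative terms limit the precision.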
